A study of Mus musculus with 19 samples.

Results

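The dermatitis response of MrgprA3+ itch neurons was set against that of MrgprA3- neurons from the same dorsal root ganglia, and split into what differed between the populations and what they shared. All 19 libraries of the series entered, in 4 groups: MrgprA3+ neurons of mice with allergic contact dermatitis (ACD, n = 4), MrgprA3+ neurons of control mice (n = 5), MrgprA3- neurons of ACD mice (n = 5) and MrgprA3- neurons of control mice (n = 5). For each gene the difference was the ACD minus control change of mean log2(FPKM + 1) in MrgprA3+ neurons minus that in MrgprA3- neurons, and the shared change was the mean of those changes. Of 18666 genes in the table, 11996 (64.3%) had at least 1 FPKM (fragments scaled to transcript length and library size) in at least 4 libraries and were kept.

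All groups were 2-month-old males on a C57BL/6 background in which MrgprA3 neurons carry a genetic GFP label; the labels do not say which transgene drives it. ACD mice received squaric acid dibutylester (SADBE, 25 µl at 0.5% in acetone) on the abdomen on days 1 to 3 and on the lower back on days 8 to 12, and control mice received acetone alone. On day 13 the 16 thoracic and lumbar ganglia that serve the treated skin were taken from each of 5 mice in either treatment, and each animal gave a sort of both populations. GFP chose the MrgprA3+ cells, and a gate on cells of similar shape chose the MrgprA3- cells, which therefore mix many kinds of sensory neuron. ACD MrgprA3+ replicate 3 was not analysed here.

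MrgprA3 is a receptor for the itch-inducing drug chloroquine, and the C fibres that carry it innervate the skin and drive scratching. SADBE is a hapten: after a first exposure sensitises T cells, a later exposure of the skin elicits a dermatitis with persistent itch. A difference between the populations would mark genes that respond to the dermatitis in the itch neurons in another way than in their neighbours. The shared change is an average, so it can pass when both populations respond or when either population alone responds strongly. By itself it does not show a response of the ganglion's neurons at large.

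Mrgpra3 itself was measured at 917, 928, 1079 and 836 FPKM in ACD MrgprA3+ libraries, against 1190.35, 1065, 948, 1446 and 1007 FPKM in control MrgprA3+ libraries. The ACD MrgprA3- libraries had 20.2, 18.6, 14.01, 23.9 and 23.1 FPKM and the control MrgprA3- libraries 17.9, 16.4, 17.9, 22.5 and 26.4 FPKM. Every MrgprA3+ library lay far above every MrgprA3- library in both treatments. Within a mouse, MrgprA3+ exceeded MrgprA3- by 5.39 ± 0.19 in log2(FPKM + 1) in ACD mice and by 5.74 ± 0.33 in control mice (SD, n = 4 and 5), and this contrast gave p = 0.103 by an exact two-sided permutation over the 9 mice with both libraries, whose smallest possible p is 0.00794. Other measures of library quality were compared the same way: the number of genes above 0 FPKM in MrgprA3+ minus MrgprA3- was -1960.5 in ACD mice and -2010.6 in control mice (p = 0.865, exact permutation). The libraries held an estimated 10.32 to 21.04 M fragments each.

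The MrgprA3+ libraries were the noisier ones, which sets how small a difference could be seen. The median SD of log2(FPKM + 1) over genes was 0.40 in ACD MrgprA3+ and 0.43 in control MrgprA3+ libraries, against 0.21 in both ACD MrgprA3- and control MrgprA3- libraries. The median standard error (SE) was 0.34 for the difference and 0.17 for the shared change. In bulk libraries, fewer cells of a type and less RNA per cell cannot be told apart.

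No gene passed the test of a different dermatitis response in the 2 populations. At an adjusted p under 0.05 (limma with Benjamini-Hochberg adjustment over 11996 genes), 0 genes were called in either direction, which is 0% of those tested, and the smallest adjusted p was 0.994. At an unadjusted p under 0.05 there were 553 genes (4.61%), of which 302 (2.52%) had a more positive change in MrgprA3+ neurons and 251 (2.09%) a more negative one. The unadjusted p-values of the difference were spread evenly from 0 to 1, whereas those of the shared change piled up at low values, with 10.9% of genes under 0.05. The 95% interval of the difference lay within 1 log2 unit of 0 for 6711 genes (55.9%) and within 0.5 for 1029 genes (8.58%). Among the 3472 genes averaging at least 20 FPKM, 3186 (91.8%) had an interval within 1 log2 unit, a larger share than over all genes.

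**Figure D1:**
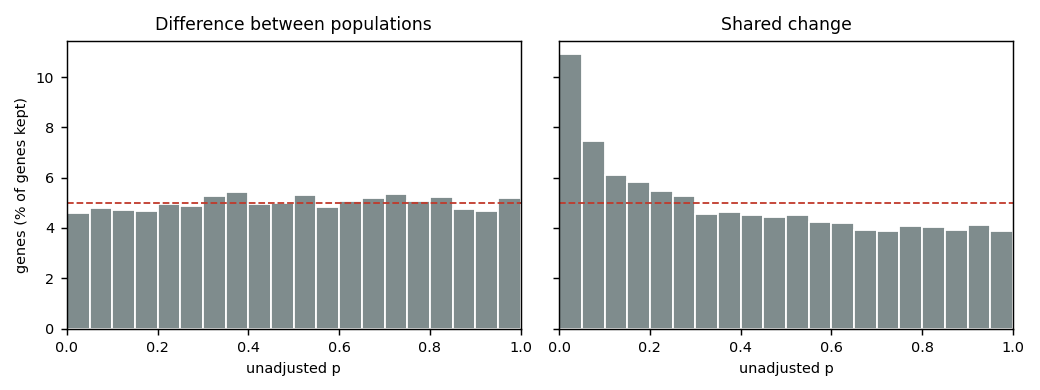
Share of the 11996 genes kept (y, %) in bins of unadjusted p (x), for the difference between populations (left) and the shared change (right), with the 5% expected in each bin of width 0.05 for uniform p-values dashed. The lowest bin holds 4.61% of genes on the left and 10.9% on the right.

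The genes with the smallest unadjusted p for the difference are given as values, since none passed. All 20 had a larger change in MrgprA3+ neurons, the noisier population, than in MrgprA3- neurons. Over all genes kept, the ACD MrgprA3+ libraries lay wholly above their controls for 105 (0.875%) and wholly below for 89 (0.742%). The ACD MrgprA3- libraries did so for 90 (0.75%) and 80 (0.667%). Genes named here and below were mostly picked by p on the same values, so a lack of overlap describes them and adds no support. Ces5a, a carboxylesterase, had 3.45, 3.28, 4.11 and 3.91 FPKM in ACD MrgprA3+ libraries, against 1.28, 0.15, 0.42, 0.18 and 1.04 FPKM in control MrgprA3+ libraries. In MrgprA3- neurons it had 0.88, 0.74, 0.43, 0.92 and 1.01 FPKM in ACD and 0.36, 0.27, 0.87, 0.54 and 0.94 FPKM in control libraries. The 4 ACD MrgprA3+ libraries thus lay above all 15 others, while the MrgprA3- groups overlapped. The difference was 1.41 (SE 0.32, 95% interval 0.75 to 2.07, unadjusted p = 1.86e-04, adjusted p = 0.994 by limma).

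S100a16, an EF-hand calcium-binding protein, had 5.41, 9.41, 11.8 and 13.5 FPKM in ACD MrgprA3+ libraries, against 1.5, 3.99, 0.96, 1.92 and 1.55 FPKM in control MrgprA3+ libraries. Its MrgprA3- values were 18.8, 27.3, 47.7, 30.02 and 22.8 FPKM in ACD and 23.8, 20.5, 18.2, 19.3 and 31.99 FPKM in control libraries. It separated the treatments in MrgprA3+ neurons, where its level was low, and overlapped in MrgprA3- neurons, where its level was higher throughout. The difference was 1.59 (SE 0.39, 95% interval 0.78 to 2.39, unadjusted p = 4.76e-04).

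H2-DMa, the alpha chain of the chaperone that loads peptides onto MHC class II, had 14.9, 12.2, 14.9 and 9.81 FPKM in ACD MrgprA3+ libraries, against 2.82, 2.48, 9.76, 5.68 and 3.89 FPKM in control MrgprA3+ libraries. ACD MrgprA3- libraries had 6.31, 6.63, 9.48, 8.05 and 7.01 FPKM and control MrgprA3- libraries 6.47, 7.06, 6.69, 11.1 and 6.38 FPKM. The MrgprA3+ groups touched without overlapping, at 9.81 FPKM in ACD and 9.76 FPKM in control, and the MrgprA3- groups coincided. The difference was 1.34 (SE 0.37, unadjusted p = 0.00145). Macrophages and other leukocytes also make H2-DMa. The 16 leukocyte markers listed summed in MrgprA3+ libraries to 2.82 to 11.5 FPKM in ACD and 5.17 to 12.1 FPKM in control libraries. Of them, C1qa, Tyrobp and Cd52 were at 0 in both groups. Ptprc and Fcer1g were at 0 in all control but not all ACD libraries, and C1qc was at 0 in all ACD but not all control libraries. The part of leukocyte RNA in the H2-DMa values was not tested.

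Rsc1a1, a regulator of solute carriers, had the smallest unadjusted p of all. Its values were 4.35, 7.08, 4.82 and 7.08 FPKM in ACD MrgprA3+ libraries, against 1.63, 1.59, 3.74, 1.34 and 0.7 FPKM in control MrgprA3+ libraries. In MrgprA3- neurons the order was the other way round, with means of 2.67 ± 0.561 FPKM in ACD and 3.68 ± 1.1 FPKM in control libraries (SD, n = 5 each). The difference was 1.68 (SE 0.37, unadjusted p = 1.48e-04). An exon of Rsc1a1 overlaps Ddi2 on the same strand in the GENCODE annotation, so reads of these genes may not have been separable.

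Other genes among the 20 smallest p had a positive difference too. Atxn3, the deubiquitinase ataxin-3, averaged 10.2 ± 2.9 FPKM in ACD and 3.57 ± 1.73 FPKM in control MrgprA3+ libraries, with a difference of 1.54 (SE 0.39). Qars, the glutaminyl-tRNA synthetase, averaged 30.7 ± 4.01 FPKM in ACD and 17.2 ± 4.75 FPKM in control MrgprA3+ libraries, against 30.1 ± 3.08 and 29.5 ± 1.53 FPKM in ACD and control MrgprA3- libraries, with a difference of 0.81 (SE 0.23). Kitl, the ligand of the receptor Kit, was low in MrgprA3+ neurons, at 1.45 ± 0.311 FPKM in ACD and 0.388 ± 0.247 FPKM in control libraries, and its difference was 1.00 (SE 0.29). The zinc finger genes Zfp583 and Mynn and the telomere factor Obfc1 had differences of 1.86, 1.36 and 1.54. Obfc1 was the only gene that any of the alternatives called, at 1.97 and an adjusted p of 0.0121 without ACD MrgprA3+ replicate 5, whose 2.05 FPKM was the lowest of its group. Obfc1 has an antisense partner in the GENCODE annotation.

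Other genes among those 20 had a negative difference. Npl, which breaks down sialic acid, had 0.13, 0, 1.78 and 2.68 FPKM in ACD MrgprA3+ libraries, against 5.05, 8.89, 3.69, 8.17 and 5.26 FPKM in control MrgprA3+ libraries. The 2 groups did not overlap, while MrgprA3- neurons averaged 2.19 ± 0.19 FPKM in ACD and 2.69 ± 0.701 FPKM in control libraries; the difference was -1.72 (SE 0.45, unadjusted p = 7.86e-04). Csad, an enzyme of taurine synthesis, averaged 2.17 ± 2.07 FPKM in ACD and 7.79 ± 2.41 FPKM in control MrgprA3+ libraries, with a difference of -1.74 (SE 0.46). Cryl1, a dehydrogenase of the glucuronate pathway, averaged 7.97 ± 1.7 FPKM in ACD and 18.99 ± 7.4 FPKM in control MrgprA3+ libraries, with a difference of -1.14 (SE 0.30). Pla2g3, a secreted phospholipase A2, averaged 5.22 ± 1.48 FPKM in ACD and 10.8 ± 2.7 FPKM in control MrgprA3+ libraries, with a difference of -1.11 (SE 0.30). In MrgprA3- neurons the treatments differed by at most 0.17 in log2(FPKM + 1) for Csad, Cryl1 and Pla2g3. Tspan9, Caly, Rcor1, Ddx59, Zfp277 and 9430015G10Rik had differences between -1.66 and -0.77.

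**Figure D2:**
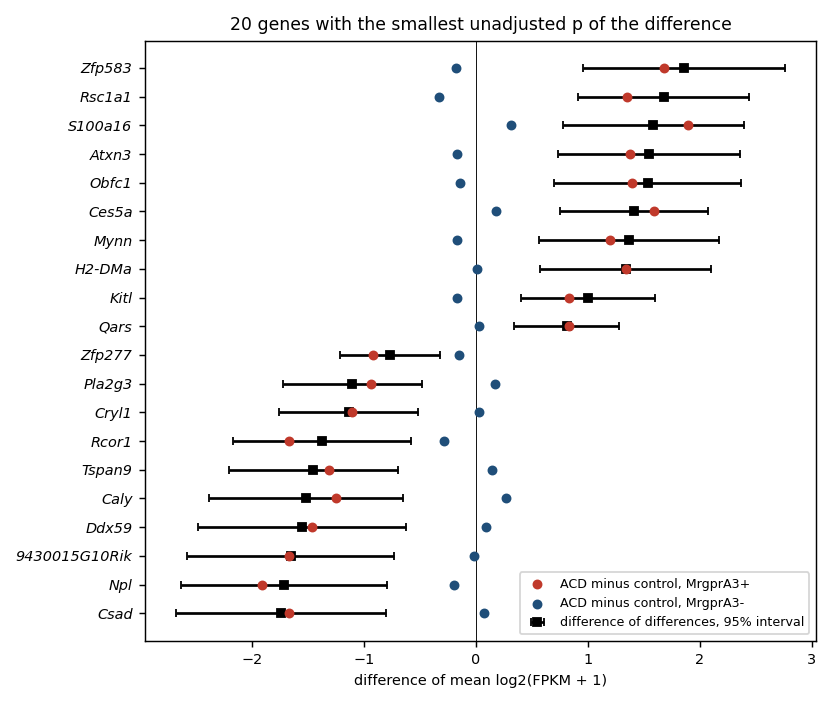
Difference of the ACD minus control change between MrgprA3+ and MrgprA3- neurons (x, log2(FPKM + 1) units, squares) with 95% intervals (bars) from limma for the 20 genes with the smallest unadjusted p, with the change in each population as a round point (red for MrgprA3+, blue for MrgprA3-). The intervals lie on 1 side of 0 for each of them because the genes were picked by p, and none passed the adjusted threshold.

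A shared dermatitis change was detected for 9 genes (0.075% of those tested), of which 8 rose (0.0667%) and 1 fell (0.00834%) at an adjusted p under 0.05 (limma, Benjamini-Hochberg). The risers were Vat1l, Galnt6, Serpinb1a, Tifa, S100a16, Ces5a, Cnst and Lipk, and Rcor1 fell. When the 2 libraries of each mouse were averaged and 9 mice were compared, Vat1l, Galnt6 and Serpinb1a passed, each with an adjusted p of 0.0471; with the mouse as a random block 7 genes passed. Leaving out 1 MrgprA3+ library gave 28 (control replicate 4), 18 (ACD replicate 4), 17 (control replicate 5), 16 (ACD replicate 2 or control replicate 1), 11 (ACD replicate 1), 9 (control replicate 3), 8 (ACD replicate 5) or 7 (control replicate 2). Leaving out 1 MrgprA3- library gave 4 (ACD replicate 2 or 4, control replicate 2 or 4), 5 (ACD replicate 1 or 5, control replicate 1), 6 (ACD replicate 3), 7 (control replicate 5) or 10 (control replicate 3).

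Vat1l, a relative of the vesicle amine transport protein Vat1, was higher in the ACD libraries of both populations. It had 189.98, 179, 169.54 and 169 FPKM in ACD MrgprA3+ libraries, against 130.03, 124, 120.49, 115 and 125 FPKM in control MrgprA3+ libraries. Its MrgprA3- values were 80.6, 98.5, 91.9, 90.1 and 99.3 FPKM in ACD and 61.3, 70.05, 67.2, 68.01 and 68.1 FPKM in control libraries. Every ACD library lay above every control library of its population. The shared change was 0.49 (SE 0.062, adjusted p = 5.75e-04), made of 0.52 in MrgprA3+ and 0.45 in MrgprA3- neurons. The difference was 0.07, with a 95% interval of -0.18 to 0.33.

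Galnt6, a Golgi enzyme that starts mucin-type O-glycosylation of proteins, was low in control libraries and higher in the ACD libraries of both populations. It had 2.49, 4.54, 2.11 and 2.81 FPKM in ACD MrgprA3+ libraries, against 0.03, 0.1, 0.07, 0.35 and 1.46 FPKM in control MrgprA3+ libraries. MrgprA3- neurons gave 5.16, 3.41, 3.69, 3.3 and 4.05 FPKM in ACD and 0.55, 0.69, 1.27, 1.59 and 1.56 FPKM in control libraries. The groups did not overlap in either population, and control replicate 5 in MrgprA3+ neurons came nearest to the ACD libraries. This gave a shared change of 1.39 (SE 0.19, adjusted p = 5.75e-04), and the 95% interval of the difference was -0.44 to 1.10. Galnt6 has an antisense partner in the GENCODE annotation, and the sources used here do not state that counting used strand.

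Tifa and Serpinb1a are both known from inflammation. Tifa, an adaptor that activates NF-kB through TRAF6, had 37.9, 42.2, 20.8 and 30.5 FPKM in ACD MrgprA3+ libraries, against 12.2, 27.5, 11.1, 17.99 and 16.5 FPKM in control MrgprA3+ libraries. In MrgprA3- neurons it had 44.8, 40.4, 37.9, 39.2 and 37.4 FPKM in ACD and 13.01, 18.3, 17.6, 25.9 and 22.8 FPKM in control libraries. The treatments separated in MrgprA3- neurons, whereas ACD replicate 4 and control replicate 2 overlapped in MrgprA3+ neurons. The shared change was 0.98 (SE 0.16, adjusted p = 0.00723) and the difference -0.10, with a 95% interval of -0.76 to 0.55.

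Serpinb1a, an intracellular inhibitor of neutrophil serine proteases, had 44.1, 59.2, 42.4 and 49.8 FPKM in ACD MrgprA3+ libraries, against 13.1, 28.2, 16.4, 13.7 and 21.4 FPKM in control MrgprA3+ libraries. Its MrgprA3- values were 94.97, 107, 131, 102 and 110.08 FPKM in ACD and 50.9, 77.3, 48.2, 67.5 and 99.4 FPKM in control libraries. The MrgprA3+ groups were apart, and in MrgprA3- neurons control replicate 5 reached into the ACD range. This gave a shared change of 1.05 (SE 0.14, adjusted p = 5.75e-04), with 1.39 in MrgprA3+ and 0.70 in MrgprA3- neurons, and the difference had an unadjusted p of 0.0222. Serpinb1a has close mouse paralogs, between which reads may have been split.

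Vat1l, Galnt6, Serpinb1a and Tifa were called in each of the 19 fits that left out 1 library, and the promoters of those found in RefSeq are shown to let a reader compare what lies before their starts. RefSeq held promoter windows, 250 bases before to 50 after a start, for 7 of the 9 genes, 10 windows in all, on build GRCm38.p6. They were searched on both strands for the letters of AP-1 (TGANTCA), STAT (TTCNNNGAA), NF-kB (GGGANNNNCC) and C/EBP (TTGCNNAA) sites, which occur in 7.81%, 8.3%, 20.7% and 10.8% of the 32851 promoter windows of the table. Capitals mark NF-kB letters. The window of the downstream Tifa start, chr3:127790407-127790706 on the plus strand, held 2 matches, that of the downstream Galnt6 start, chr15:100720428-100720727 on the minus strand, held 1, and that of Vat1l, chr8:114205390-114205689 on the plus strand, held no match to any of the 4 motifs. The windows of the upstream starts of Tifa and Galnt6 held no match to any of them either and are not shown. A match is a run of letters and not a measured site.
Tifa: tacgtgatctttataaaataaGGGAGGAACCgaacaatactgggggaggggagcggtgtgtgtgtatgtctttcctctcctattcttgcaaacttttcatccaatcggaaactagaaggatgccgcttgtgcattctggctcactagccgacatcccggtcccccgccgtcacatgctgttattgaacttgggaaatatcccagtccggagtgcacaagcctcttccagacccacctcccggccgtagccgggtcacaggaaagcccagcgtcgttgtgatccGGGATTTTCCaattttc
Galnt6: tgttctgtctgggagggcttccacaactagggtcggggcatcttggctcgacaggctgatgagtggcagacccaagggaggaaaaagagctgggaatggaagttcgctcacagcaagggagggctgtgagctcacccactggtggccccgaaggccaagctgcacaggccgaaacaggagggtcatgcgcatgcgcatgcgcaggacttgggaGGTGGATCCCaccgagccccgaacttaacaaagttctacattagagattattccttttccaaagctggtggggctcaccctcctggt
Vat1l: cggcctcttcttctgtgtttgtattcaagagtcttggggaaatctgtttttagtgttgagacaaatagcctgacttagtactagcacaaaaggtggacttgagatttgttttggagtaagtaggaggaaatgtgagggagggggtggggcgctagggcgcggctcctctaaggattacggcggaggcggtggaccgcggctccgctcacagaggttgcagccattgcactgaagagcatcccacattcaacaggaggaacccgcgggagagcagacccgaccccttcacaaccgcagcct

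For the other called genes the change was larger in size in MrgprA3+ than in MrgprA3- neurons, as it was for Serpinb1a. Cnst, consortin, which helps move connexins to the cell surface, averaged 31.2 ± 7.15 FPKM in ACD and 14.9 ± 5.5 FPKM in control MrgprA3+ libraries, and 50.8 ± 6.31 and 34.7 ± 4.9 FPKM in ACD and control MrgprA3- libraries (SD, n = 4 and 5, then 5 each). Its treatments did not overlap in either population, and its shared change was 0.81 (SE 0.15, adjusted p = 0.0315). Lipk, an acid lipase, had 3.3, 5.17, 3.82 and 0.36 FPKM in ACD MrgprA3+ libraries, against 0.67, 0, 0, 0.21 and 0.03 FPKM in control MrgprA3+ libraries. ACD replicate 5 lay among the controls there, and in MrgprA3- neurons all ACD libraries (2.03, 1.61, 2.5, 1.62 and 2 FPKM) lay above all control libraries (0.76, 1.26, 0.42, 1.12 and 1.12 FPKM). The shared change of Lipk was 1.13 (SE 0.22, adjusted p = 0.0379).

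For Ces5a, S100a16 and Rcor1 the average passed although the change in MrgprA3- neurons was small. Ces5a had a shared change of 0.89 (SE 0.16, adjusted p = 0.0220), made of 1.59 in MrgprA3+ and 0.18 in MrgprA3- neurons. S100a16 had a shared change of 1.10 (SE 0.20, adjusted p = 0.0215), made of 1.90 and 0.31 in the same order. Rcor1, a scaffold of the REST corepressor complex, had 3.61, 0.54, 0.86 and 1.65 FPKM in ACD MrgprA3+ libraries, against 8.45, 7.85, 4.65, 8.09 and 5.41 FPKM in control MrgprA3+ libraries, and averaged 3.87 ± 0.78 FPKM in ACD and 4.98 ± 1.15 FPKM in control MrgprA3- libraries. All ACD MrgprA3+ libraries lay below all control MrgprA3+ libraries, and the shared change was -0.98 (SE 0.19, adjusted p = 0.0488). An exon of Rcor1 overlaps Gm48632 on the same strand in the GENCODE annotation, so reads of these may not have been separable. All 3 genes were also among the 20 smallest p of the difference, so their average is not evidence of a like response in both populations. In fits that left out 1 of the 19 libraries, S100a16 was called in 14, Ces5a in 12, Cnst in 8, Rcor1 in 5 and Lipk in 4.

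**Figure D3:**
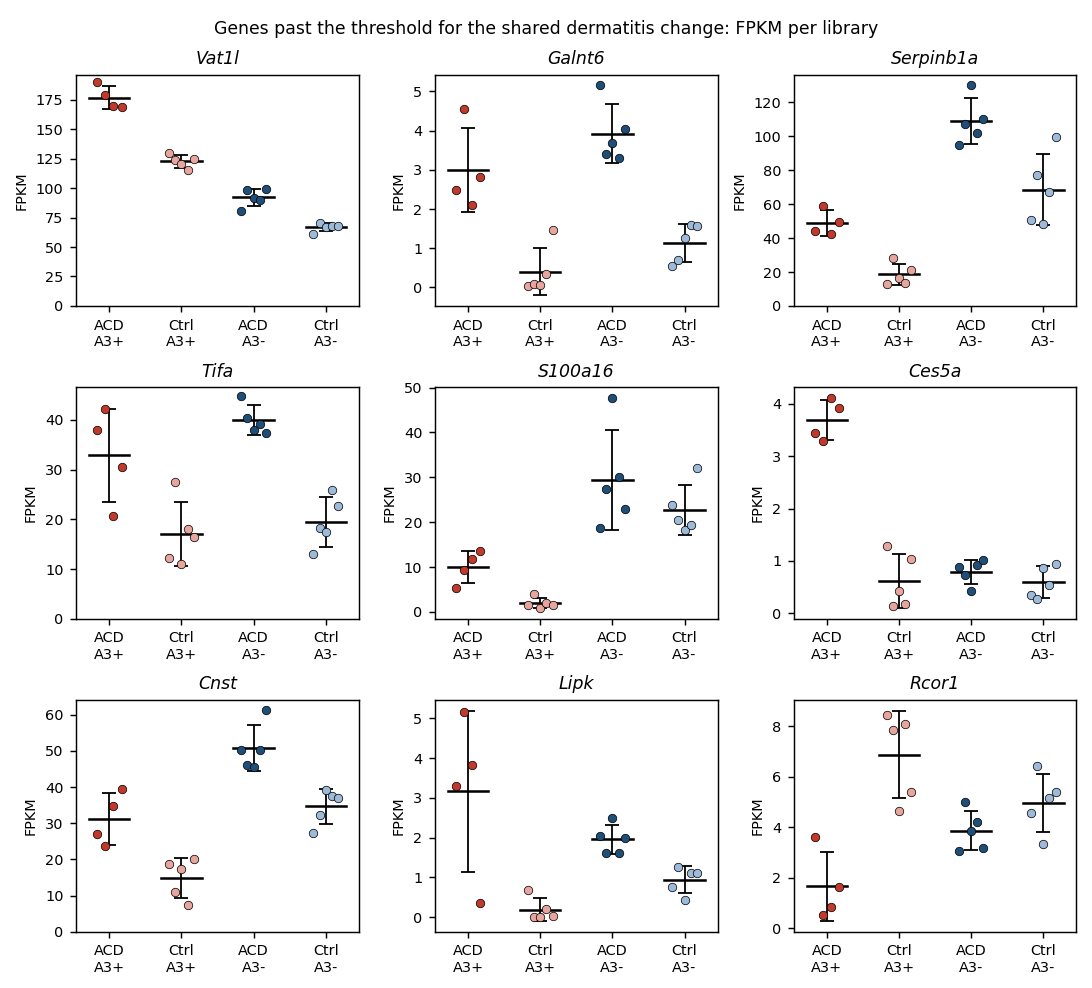
FPKM of every library (y, linear axis of its own for each gene) for the 9 genes called for a shared change, with the mean and SD of each group (bars) and the groups ACD MrgprA3+, control MrgprA3+, ACD MrgprA3- and control MrgprA3- from left to right. Vat1l, Galnt6 and Cnst separate the treatments in both populations, while Serpinb1a, Ces5a, S100a16 and Rcor1 separate them in MrgprA3+ neurons alone and Tifa and Lipk in MrgprA3- neurons alone.

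Timp1 and Bdnf had large shared values that did not pass, and control mice overlapped the ACD mice. Timp1, an inhibitor of matrix metalloproteinases, had 2.15, 3.21, 4.39 and 3.95 FPKM in ACD MrgprA3+ libraries, against 0.07, 0, 0.18, 1.13 and 3.51 FPKM in control MrgprA3+ libraries. MrgprA3- neurons gave 5.8, 5.85, 6.52, 3.21 and 6.06 FPKM in ACD and 0.39, 0.36, 0.89, 3.12 and 4.32 FPKM in control libraries. Controls 1 to 3 were low in both populations, whereas control 5 reached the ACD range in both and control 4 came near it in MrgprA3- neurons. The shared change was 1.4 (SE 0.29, adjusted p = 0.0629).

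Bdnf, a neurotrophin made by sensory neurons, had a similar layout. It had 50.1, 48.9, 28.1 and 47.01 FPKM in ACD MrgprA3+ libraries, against 13.6, 11.2, 15.4, 47.6 and 46.2 FPKM in control MrgprA3+ libraries. In MrgprA3- neurons it had 64.9, 48.1, 54.6, 49.97 and 56.9 FPKM in ACD and 29.1, 23.2, 22.5, 49.8 and 54.2 FPKM in control libraries. Controls 4 and 5 were level with the ACD libraries in both populations, and controls 1 to 3 lay far below. This gave a shared change of 0.80 (SE 0.24, unadjusted p = 0.00336, adjusted p = 0.229). The labels name no batch that sets these mice apart.

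A2m, Serpina3i and Steap1 also stood near the threshold. A2m, the protease inhibitor alpha-2-macroglobulin, averaged 0.723 ± 0.453 FPKM in ACD and 0.156 ± 0.0876 FPKM in control MrgprA3+ libraries, and 3.46 ± 1.02 and 1.09 ± 0.71 FPKM in ACD and control MrgprA3- libraries, with no overlap of treatments in either population (shared change 0.83, SE 0.17, adjusted p = 0.0629). Serpina3i, of a serpin family with many near copies in the mouse, averaged 17.2 ± 3.37 FPKM in ACD and 10.6 ± 6.39 FPKM in control MrgprA3+ libraries, and 12.4 ± 1.79 and 6.19 ± 1.1 FPKM in ACD and control MrgprA3- libraries (shared change 0.83, SE 0.18, adjusted p = 0.0629). Steap1, of the metalloreductase family, had a shared change of 1.41 (SE 0.34, adjusted p = 0.111).

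On the negative side near the threshold stood Micu3, Acsf3 and Rb1cc1. Micu3, which tunes the mitochondrial calcium uniporter, had 13.8, 17.8, 13.9 and 15.3 FPKM in ACD MrgprA3+ libraries, against 21.9, 31.1, 18.1, 18.7 and 29.8 FPKM in control MrgprA3+ libraries. Its MrgprA3- values were 11.1, 6.45, 8.77, 9.91 and 6.59 FPKM in ACD and 17.02, 12.6, 12.4, 13.1 and 17.8 FPKM in control libraries. The ACD libraries lay below the controls in both populations, by -0.59 and -0.71 in log2(FPKM + 1), and the shared change of -0.65 (SE 0.14) had an adjusted p of 0.0629. Acsf3, a mitochondrial malonyl-CoA synthetase, and Rb1cc1, which starts autophagosome formation, also lay below the controls without overlap in both populations, with shared changes of -1.08 and -0.55.

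Taking no overlap in both populations as a description, 5 genes (0.0417%) lay above their controls in both, namely A2m, Cnst, Galnt6, Ppp1r15a and Vat1l, and 3 (0.025%) lay below, namely Acsf3, Micu3 and Rb1cc1. A single gene (0.00834%), Zfyve26, lay above the controls in MrgprA3+ and below them in MrgprA3- neurons. Ppp1r15a, the stress-induced subunit of the eIF2-alpha phosphatase, averaged 31.3 ± 4.68 FPKM in ACD and 25.5 ± 2.76 FPKM in control MrgprA3+ libraries, and 35.6 ± 4.5 and 27.8 ± 1.89 FPKM in ACD and control MrgprA3- libraries. These 9 genes were picked out after their values were seen.

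Across all genes the changes in the populations were weakly alike. Their Pearson correlation was 0.243 and their Spearman correlation 0.238 over 11996 genes, which are not independent replicates, and 7048 genes (58.8%) had changes of the same sign. The changes share no library, but both populations came from the same mice. Among genes averaging at least 20 FPKM the correlation was 0.377 and 62.7% had the same sign. The SD of the change over genes was 0.38 in MrgprA3+ and 0.20 in MrgprA3- neurons.

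**Figure D4:**
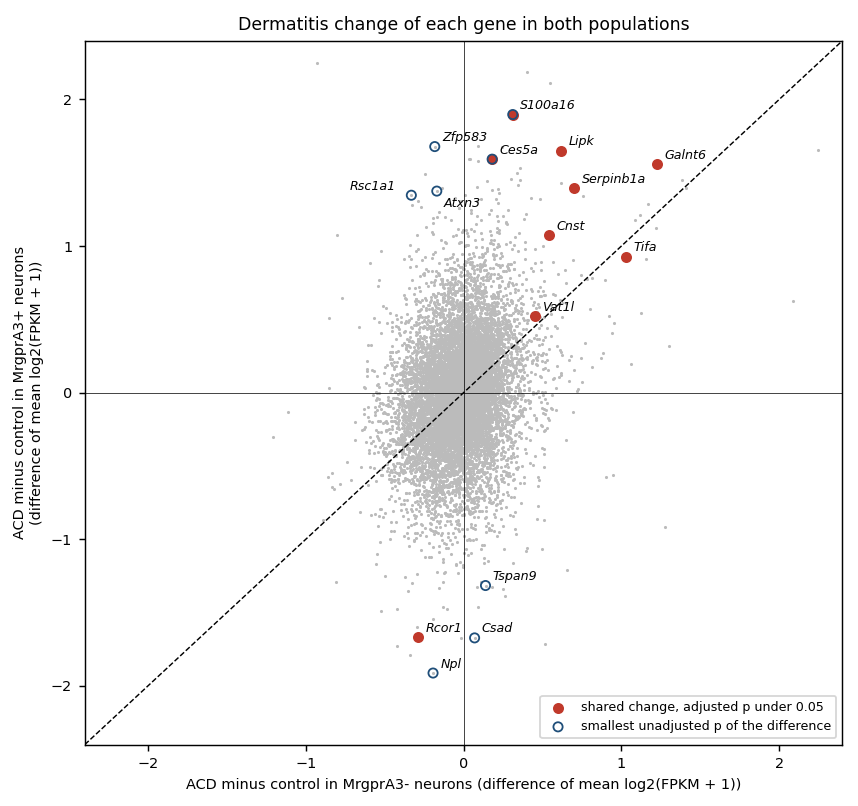
ACD minus control change of each of the 11996 genes kept in MrgprA3+ neurons (y) against that in MrgprA3- neurons (x), both as differences of mean log2(FPKM + 1); the dashed line marks equal change. The genes called for a shared change are filled and genes with the smallest unadjusted p of the difference are ringed; the cloud is taller than wide, with SDs of 0.38 on y and 0.20 on x.

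Each population was also fitted alone, because their spreads differ. MrgprA3+ neurons gave 0 called genes (0%; smallest adjusted p 0.258; 665 genes, 5.54%, at an unadjusted p under 0.05, of them 3.05% of all genes upwards and 2.49% downwards) and MrgprA3- neurons 13 (0.108%; 1012 genes, 8.44%, at an unadjusted p under 0.05, 3.66% upwards and 4.78% downwards). With the spread pooled over all 4 groups the counts became 42 in MrgprA3+ and 0 in MrgprA3- neurons, so the order of the counts depended on how the spread was estimated. The MrgprA3- count was 4 to 7 without ACD replicate 1, 2, 3 or 5, and 6 or 8 without control replicate 2 or 1. At an unadjusted p under 0.05 in both populations, 92 genes (0.767%) changed in the same direction, 53 of them upwards (0.442%) and 39 downwards (0.325%), and 5 (0.0417%) in opposite directions, namely Fam206a, Rb1, Th, Tspan6 and Fam188b.

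Of the 13 genes called in MrgprA3- neurons, Zfp772 alone had a value of the opposite sign in MrgprA3+ neurons. Vat1l, Galnt6, Tifa, Serpina3i and Steap1 were among the 12 that rose there, as were Fam210b, Racgap1, Accsl, Tph1, Zfp772 and Smox. Fam210b, a mitochondrial protein, averaged 22.1 FPKM in ACD and 12.1 FPKM in control MrgprA3+ libraries, and 38.5 and 17.7 FPKM in ACD and control MrgprA3- libraries, with changes of 1.17 (SE 0.51) and 1.08 (SE 0.14). Racgap1, a GTPase-activating protein of cell division, had changes of 0.91 (SE 0.45) in MrgprA3+ and 1.15 (SE 0.17) in MrgprA3- neurons. Prkar2b, a regulatory subunit of protein kinase A, was the 1 gene that fell, with a change of -0.64 in MrgprA3- neurons, and it had -0.25 (SE 0.27) in MrgprA3+ neurons.

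Tph1 and Zfp772 had the smallest unadjusted p of the difference among those 13. Tph1, the serotonin-making enzyme of tissues outside the brain, had 0.59, 0.03, 0 and 0.09 FPKM in ACD MrgprA3+ libraries, against 0, 0, 0, 0.06 and 0 FPKM in control MrgprA3+ libraries. MrgprA3- neurons gave 1.59, 2.2, 1.74, 1.63 and 1.19 FPKM in ACD and 0.9, 0.21, 0.05, 0.04 and 0.33 FPKM in control libraries. It was near 0 in nearly all MrgprA3+ libraries and separated the treatments in MrgprA3- neurons, with a difference of -0.87 (unadjusted p = 0.00553). Zfp772 had changes of -0.57 in MrgprA3+ and 0.90 in MrgprA3- neurons, with a difference of -1.48 (unadjusted p = 0.00786). Neither difference passed adjustment over all genes.

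Receptors and markers of itch neurons were looked at next, as lists of known genes. Of the 15 markers kept for the MrgprA3 label and its NP2 class (the neuron class that holds MrgprA3 neurons), 0 had an unadjusted p under 0.05 for the difference, against 4.61% of all genes, and 1, Plcb3, for the shared change, against 10.9%, with a value of -0.18. Hrh1, the histamine H1 receptor, averaged 22.6 ± 3.14 FPKM in ACD and 20.8 ± 10.1 FPKM in control MrgprA3+ libraries, and its difference had a 95% interval of -0.53 to 0.89. The irritant channel Trpa1 had an interval of -0.41 to 0.74, the capsaicin channel Trpv1 of -0.59 to 0.42 and the interleukin-4 receptor Il4ra of -0.78 to 0.14. Those intervals, which are not adjusted over genes, give the differences that the data leave possible at this n, and are not limits of detection.

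Markers of NP3, the neighbouring itch class that carries Nppb, Sst and the interleukin-31 receptor, had the largest median shared change of the lists with at least 5 members. It was 0.33 over 12 members, made of 0.55 in MrgprA3+ and 0.17 in MrgprA3- neurons, against -0.02 over all genes. The shared change was positive for 11 of the 12, against 5563 of all 11996 genes. Of the 12, 3 (Il31ra, Osmr and Htr1a) had an unadjusted p under 0.05, against 5.2% of all genes in that direction, but none passed adjustment. Il31ra, the interleukin-31 receptor subunit, had 14.4, 6.65, 21.9 and 14.1 FPKM in ACD MrgprA3+ libraries, against 0.8, 1.58, 4.68, 12.6 and 9.52 FPKM in control MrgprA3+ libraries. In MrgprA3- neurons it had 77.9, 53.9, 72.3, 58.6 and 88.7 FPKM in ACD and 49.1, 55.8, 62.8, 45.5 and 57.2 FPKM in control libraries. The treatments overlapped in both populations, and control MrgprA3+ replicates 1 and 2 were the lowest. Osmr, its partner subunit, averaged 35.2 ± 7.77 FPKM in ACD and 27.1 ± 9.1 FPKM in control MrgprA3+ libraries, and 38.5 ± 5.9 and 30.6 ± 4.58 FPKM in ACD and control MrgprA3- libraries.

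The mean log2(FPKM + 1) of the NP3 list was 2.57 to 2.79 in ACD and 1.57 to 2.47 in control MrgprA3+ libraries, and 3.75 to 4.17 in ACD and 3.58 to 4.02 in control MrgprA3- libraries. Control MrgprA3+ replicates 1 and 2 had the lowest values, 1.57 and 1.79. The low-threshold C fibre and large-diameter lists were also lowest in these replicates among the MrgprA3+ libraries. So were the NP1, peptidergic, Schwann cell, and endothelial, mural and fibroblast lists. The satellite glia, pan-neuronal, leukocyte, T cell and mast cell, and red blood cell lists did not have both replicates lowest. For the low-threshold C fibre and large-diameter lists, every MrgprA3+ library had a lower mean than any MrgprA3- library. The summed FPKM of the large-diameter list overlapped between the populations. The means of the low-threshold C fibre and large-diameter lists overlapped between ACD and control MrgprA3+ libraries, whereas those of the NP3 list did not. The summed FPKM of the NP3 list did overlap, at 191 to 286 in ACD and 150 to 243 in control MrgprA3+ libraries. The low-threshold C fibre list averaged 1.66 to 2.4 in ACD and 0.89 to 2.19 in control MrgprA3+ libraries, with control replicate 2 the lowest, and the large-diameter list averaged 2.91 to 3.28 in ACD and 2.41 to 3.09 in control MrgprA3+ libraries. The part of such RNA in the positive differences was not tested.

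Th, Cntn1 and Sytl2 are given as examples. Th, the tyrosine hydroxylase of low-threshold C fibres, had 25.2, 8.96, 38.1 and 31.04 FPKM in ACD MrgprA3+ libraries, against 5.21, 2.92, 28.2, 13.3 and 14.5 FPKM in control MrgprA3+ libraries. Its MrgprA3- values were 157, 167, 156, 149 and 138 FPKM in ACD and 179, 152, 161, 229.56 and 193 FPKM in control libraries. Its level in MrgprA3+ libraries was a small part of that in MrgprA3- libraries and varied among replicates of both treatments, and the difference was 1.37 (95% interval 0.09 to 2.64, unadjusted p = 0.0366). Cntn1, an adhesion protein of large neurons, averaged 3.35 ± 1.24 FPKM in ACD and 1.25 ± 0.659 FPKM in control MrgprA3+ libraries, against 32.04 ± 6.71 and 30.4 ± 3.85 FPKM in ACD and control MrgprA3- libraries, with a difference of 0.89 (SE 0.33). Sytl2, a Rab27 effector of secretion, averaged 7.17 ± 2.93 FPKM in ACD and 1.94 ± 1.56 FPKM in control MrgprA3+ libraries, against 39.1 ± 5.49 and 36.4 ± 3.25 FPKM in ACD and control MrgprA3- libraries, with a difference of 1.48 (SE 0.44).

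Summed glial markers overlapped between ACD and control libraries in both populations, but such sums are led by their highest genes. Over the satellite glia markers kept, the median change was 0.13 in MrgprA3+ and -0.20 in MrgprA3- neurons. Over the Schwann cell markers kept it was 0.32 and 0.04 in the same order. Whether glial RNA differed between treatments was not tested. The 14 satellite glia markers summed to 356.2 to 492.7 FPKM in ACD and 241 to 432 FPKM in control MrgprA3+ libraries, and to 450 to 641 FPKM in ACD and 527 to 652 FPKM in control MrgprA3- libraries. The 14 Schwann cell markers summed to 1499 to 1613 FPKM in ACD and 1337 to 1608 FPKM in control MrgprA3+ libraries. S100b, which Schwann cells and large neurons both make, averaged 28.9 ± 6.82 FPKM in ACD and 16.9 ± 8.32 FPKM in control MrgprA3+ libraries, against 105 ± 9.59 and 94.2 ± 23.6 FPKM in ACD and control MrgprA3- libraries. Endothelial, mural and fibroblast markers summed to 73.8 to 119.8 FPKM in ACD and 47.6 to 92.3 FPKM in control MrgprA3+ libraries. In MrgprA3- libraries they summed to 30.2 to 53.8 FPKM in ACD and 29.9 to 52.6 FPKM in control libraries. Members of this list went different ways: within every mouse with both libraries, Rgs5 was higher and Dcn lower in MrgprA3+ than in MrgprA3- neurons. The part of vascular or fibroblast RNA in these sums was not tested.

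Inflammatory and injury genes gave few calls. Of 17 NF-kB and inflammatory signalling genes kept, 2 rose in the shared change, Serpinb1a and S100a16, and 5 had an unadjusted p under 0.05 upwards and 1 downwards. Over all genes 0.0667% rose, and 5.2% were upwards and 5.72% downwards at that unadjusted p. The list was drawn up with earlier results of these libraries known, so its count is not independent evidence. Tnfrsf12a, the receptor for TWEAK that injured neurons induce, had 2.16, 7.01, 3 and 4.51 FPKM in ACD MrgprA3+ libraries, against 1.62, 0.39, 0.09, 0.76 and 0.18 FPKM in control MrgprA3+ libraries. MrgprA3- neurons gave 4.56, 6.63, 7.17, 5.26 and 5.8 FPKM in ACD and 5.59, 3.12, 2.15, 8.72 and 6.58 FPKM in control libraries. It separated the treatments in MrgprA3+ neurons and overlapped in MrgprA3- neurons, with a shared change of 0.96 (SE 0.23, adjusted p = 0.111) and a difference of 1.43 (unadjusted p = 0.00472). Atf3, the usual injury marker of these neurons, had a shared change of -0.02 (SE 0.21).

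Receptors of type 2 cytokines gave no call. Of 15 genes kept, 4 had an unadjusted p under 0.05 upwards in the shared change (Il31ra, Osmr, Socs3 and Stat3), against 5.2% of all genes. Stat3, the transcription factor of that pathway, averaged 178 ± 34.9 FPKM in ACD and 140.31 ± 15.5 FPKM in control MrgprA3+ libraries, and 228 ± 15.2 and 201 ± 15.2 FPKM in ACD and control MrgprA3- libraries (shared change 0.25, SE 0.080, adjusted p = 0.255). Crlf2, the receptor subunit for TSLP, had 3.44, 2.85, 1.82 and 1.48 FPKM in ACD MrgprA3+ libraries, against 1.08, 1.05, 1.63, 0.65 and 0.46 FPKM in control MrgprA3+ libraries. In MrgprA3- neurons it averaged 1.41 ± 0.437 FPKM in ACD and 1.63 ± 0.241 FPKM in control libraries, and the difference was 0.92 (SE 0.32, unadjusted p = 0.00895). ACD and control overlapped for Crlf2 in MrgprA3+ neurons.

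Interferon-stimulated genes had no common direction. Of 32 kept, 3 had an unadjusted p under 0.05 upwards and 2 downwards in the shared change, against 5.2% and 5.72% of all genes, and their median was -0.02, as over all genes. Ifit3, an antiviral effector, had 19.8, 18.4, 17.2 and 15.1 FPKM in ACD MrgprA3+ libraries, against 32.9, 22.1, 23, 32.6 and 24.8 FPKM in control MrgprA3+ libraries. In MrgprA3- neurons it had 7.34, 9.4, 6.19, 4.28 and 5.15 FPKM in ACD and 8.37, 10.5, 10.3, 11.5 and 25.1 FPKM in control libraries. The MrgprA3+ groups were apart, and in MrgprA3- neurons ACD replicate 2 overlapped the controls, with a shared change of -0.72 (SE 0.17, adjusted p = 0.107).

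Genes of protein synthesis had small values, most of the same sign. Of the 71 cytosolic ribosomal proteins kept, 68 had a negative shared value, against 6433 of all 11996 genes. Their median was -0.17 (-0.23 in MrgprA3+ and -0.11 in MrgprA3- neurons) against -0.02 over all genes. Of them 9 had an unadjusted p under 0.05 downwards, against 5.72% of all genes, 0 upwards, and none passed adjustment. Rpl30 averaged 39.2 ± 9.73 FPKM in ACD and 49.4 ± 8.43 FPKM in control MrgprA3+ libraries, and 33.9 ± 9.69 and 41.2 ± 5.09 FPKM in ACD and control MrgprA3- libraries. Ribosomal protein genes have many processed pseudogenes, between which reads may have been split. Subunits of oxidative phosphorylation had a median of -0.10 over 72 genes, with 5 downwards and 1 upwards at an unadjusted p under 0.05, against 5.72% and 5.2% of all genes.

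Aminoacyl-tRNA synthetases and mitochondrial import genes gave 9 upwards and 1 downwards of 36 at an unadjusted p under 0.05 for the shared change, against 5.2% and 5.72% of all genes, 7 of the 9 being synthetases (Aars, Eprs, Farsb, Iars, Mars, Nars and Qars). Aars, the alanyl-tRNA synthetase, averaged 79.1 ± 11.6 FPKM in ACD and 52.8 ± 9.27 FPKM in control MrgprA3+ libraries, and 79.2 ± 7.43 and 66.97 ± 9.85 FPKM in ACD and control MrgprA3- libraries (shared change 0.41, SE 0.096, adjusted p = 0.0982). Of 28 heat shock and unfolded protein genes, 5 had an unadjusted p under 0.05 upwards and 1 downwards, against the same shares of all genes. Hspa5, the chaperone BiP, had a shared change of 0.24 (SE 0.069), and Hsp90aa1 one of -0.24 (SE 0.071), and neither passed adjustment. Libraries rescaled by median ratios kept the sign of the median shared change for each list whose median is given here except the interferon-stimulated genes, and over all genes they turned the split at an unadjusted p under 0.05 into 783 upwards and 557 downwards, against 624 and 686 as deposited.

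**Figure D5:**
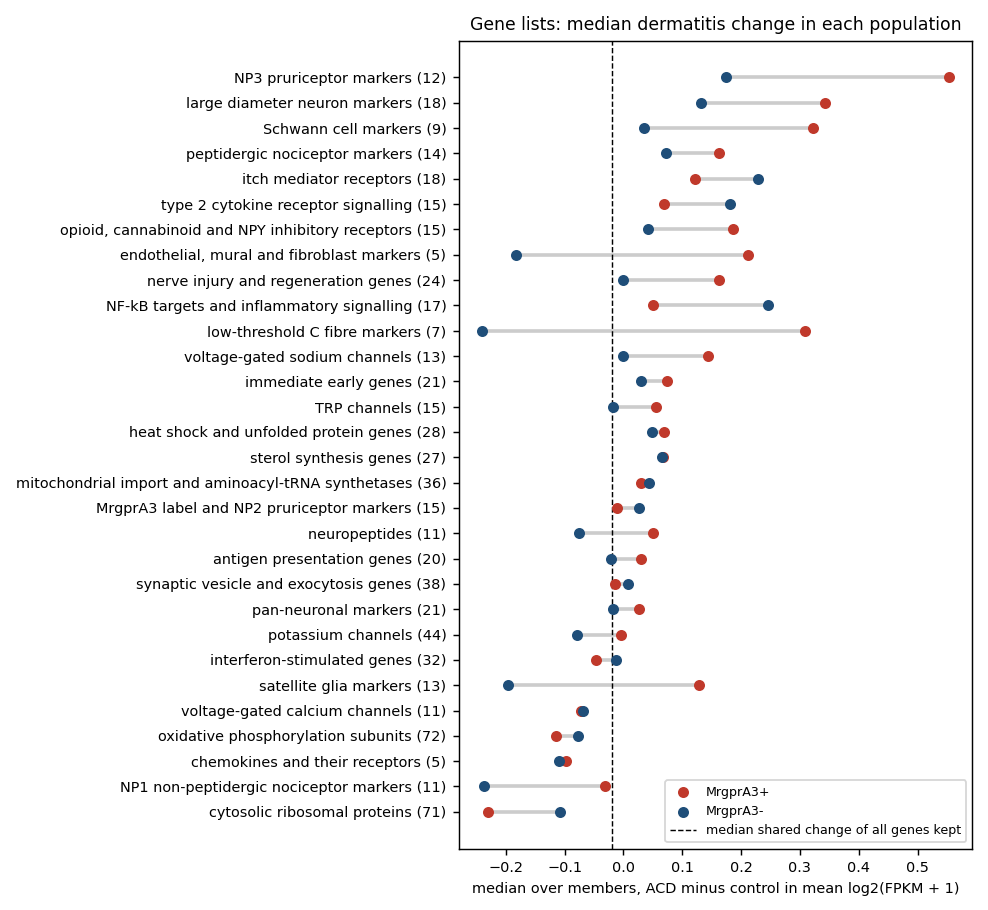
Median ACD minus control change over the members of each gene list with at least 5 genes kept (x, difference of mean log2(FPKM + 1); number of genes in brackets), in MrgprA3+ and MrgprA3- neurons, with the median shared change of all genes dashed at -0.02. The NP3 list is at the top with 0.55 and 0.17, and the cytosolic ribosomal proteins are at the bottom with -0.23 and -0.11.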

How the data were processed

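RNA of FACS-sorted neurons was sequenced from polyadenylated libraries, per the labels' protocols. The deposited values are the authors' FPKM, in a table of 18666 genes; Bowtie2 and mm9 are named in the submitters' processing notes. Which program computed FPKM, on which annotation, and whether libraries were scaled is not given in the sources used. Of the symbols, 25 had been turned into dates and 8 into dashes, and 25 of these were restored through gene identifiers; 20 genes were 0 in all libraries. Depth was estimated from the steps between low FPKM values in 1080 genes with 1 transcript of 300 to 900 bp, of which 71.5% to 81.0% per library were whole within a tolerance of 0.2 (40% for a random step). The step was fitted to the same values and the lengths are those of GRCm38, so depths are approximate, and the count data themselves were not used here.

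Group means of log2(FPKM + 1), with a pseudocount of 1, were fitted to all 19 libraries with limma 3.58.1 (eBayes with trend and robust, statmod 1.5.0, R 4.3.3). Two-sided p-values were adjusted (Benjamini-Hochberg) across the 11996 genes that reached 1 FPKM in 4 or more libraries, and the threshold was 0.05. Changes on this scale understate those of low genes. Changes within a population came from a fit to that population alone. The code was tested on simulated data. Each error after ± is an SD of FPKM over the 4 or 5 libraries of a group unless said otherwise; errors named SE are of the model.

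Libraries with 1 treatment and replicate number were taken as 1 mouse, since the labels say that both populations came from every animal. Deviations from group means of the 9 such pairs correlated at -0.056 to 0.193 (median 0.082, 4 over 0.1), against -0.144 to 0.151 (median -0.028) for the 36 other combinations within a treatment; the consensus correlation was 0.062. Alternatives were a pseudocount of 0.1, no filter, a filter of 5 FPKM, median-ratio and quantile scaling, a plain eBayes, library weights, mouse blocks and leaving out each library.

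Genes named are those past the threshold or, where fewer than 20 passed, the 20 smallest p, the 5 largest changes per direction among genes of at least 5 FPKM, up to 10 moving the same or opposite ways in both populations, a fixed set and up to 3 per list. Exons of 26 of these genes were compared with GENCODE, and 5 of the genes overlapped an exon of another gene. The overlap was on the same strand for Rsc1a1 and Rcor1, and on the opposite strand for Galnt6, Obfc1 and Ddx59. The question, lists and named-gene rule were chosen with earlier results of these data known. Lists are described by counts and medians, with no test. Promoter sequences are from RefSeq (GRCm38.p6), matched by symbol; no other positions were used, since the files refer to mm9.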

Additional observations from a re-analysis of the deposited data

Results flagged for a closer look

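Single libraries stood far from the rest of their group for 13 of 236 sets of values examined (57 named genes and 2 measures of library quality, each in 4 groups), all 13 of them genes, where chance flags about 1 in 20. Of these, 2 were in ACD MrgprA3+, 1 in control MrgprA3+, 6 in ACD MrgprA3- and 4 in control MrgprA3- libraries.

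In ACD MrgprA3+ libraries, replicate 5 had 4.05 FPKM of Ifi27l2a, an interferon-stimulated gene, against 17.7 to 21.6 FPKM in the others. Replicate 4 had 118.1 FPKM of Trpv1, against 147.9 to 152.6 FPKM. In control MrgprA3+ libraries, replicate 2 had 152.5 FPKM of Rgs10, against 175.4 to 185.6 FPKM.

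In ACD MrgprA3- libraries, replicate 4 was lowest for Timp1, with 3.21 FPKM against 5.8 to 6.52 FPKM, and for Tspan9, with 1.05 FPKM against 1.86 to 1.99 FPKM. Replicate 2 had 10.6 FPKM of Obfc1, against 7.28 to 8.07 FPKM, and 10.5 FPKM of Pla2g3, against 13.0 to 13.5 FPKM. Replicate 1 had 3.92 FPKM of Csad, against 3.1 to 3.31 FPKM, and replicate 3 had 2.17 FPKM of Mynn, against 3 to 3.34 FPKM.

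In control MrgprA3- libraries, replicate 4 had 11.1 FPKM of H2-DMa, against 6.38 to 7.06 FPKM, and 3.92 FPKM of Npl, against 2.2 to 2.55 FPKM. Replicate 5 had 5.38 FPKM of Ifi27l2a, against 3.09 to 3.46 FPKM. Replicate 1 had 0.91 FPKM of Zfp583, against 2.59 to 3.27 FPKM.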

How the results depend on the processing

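The count of 0 genes for the difference between populations held under every alternative run except without ACD MrgprA3+ replicate 5 (1 gene, Obfc1; range 0 to 1 over left-out libraries). For the shared change, 9 genes became 5 with a pseudocount of 0.1, 5 with no filter, 5 with the filter of 5 FPKM, 15 with quantile normalization, 14 with library weights, 8 with median-ratio rescaling, 10 with a plain eBayes and 4 to 28 without 1 library. With the replicate block, the shared count was 7 (mouse as a random block) and 3 (mean of the 2 libraries per mouse), and the difference count was 0 in each block fit; the block changed no other call among the counts. All 9 genes remained positive or negative as reported under each setting. Within MrgprA3+ neurons the count was 42 with the spread pooled over all groups and 0 to 1 without 1 library; within MrgprA3- neurons it was 0 and 4 to 13. The correlation between populations was 0.309 with the filter of 5 FPKM and 0.193 to 0.281 without 1 library. The cause of these shifts was not tested. Named genes picked by the p or size of the difference or of the shared change were followed through these settings, and none changed sign. The fixed set, the list members and the genes with opposite changes were not followed unless also picked that way. Genes under about 5 FPKM rest on few fragments, and the wider spread of the MrgprA3+ libraries limits what the difference could show.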
